A study of Mus musculus with 16 samples.

Results

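The longest small RNA reads of mouse sperm are described here: the distinct read sequences of 38 to 44 nt that were seen in at least 50 reads summed over 8 sperm libraries. The members were selected on their length and on that sum of reads, and on nothing else. The rule was met by 2971 sequences, of 432917 distinct sequences of 38 to 44 nt and of 4230643 distinct sequences of every length. The members carried 2296276 of the 3141348 reads of 38 to 44 nt, or 73.1%, and 309023 of the distinct sequences of that length were seen in 1 read. The longest read in every library was 44 nt, so RNAs that go on beyond 44 bases were not seen as such.

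Sperm came from males with Dnmt2 (Dnmt2+/+, C57BL/6NCrl, bought at 6 weeks of age) or without it (Dnmt2-/-, from B6;129-Dnmt2tm1Bes/J, backcrossed over 5 generations to C57BL/6NCrl). Dnmt2, also named Trdmt1, is a methyltransferase that adds a methyl group to a cytosine of the anticodon arm of a few tRNAs. Each genotype was fed a high-fat diet (HFD, D12492) or a normal diet (ND, Diet 1415), which makes 4 groups with 2 libraries each. Mature sperm of the cauda epididymis were pelleted, Trizol was used to extract RNA, and the TruSeq small RNA kit was used for the libraries. All groups share those steps, the 2 genotypes differ also in where the animals came from, and the labels do not say whether the 2 libraries of a group come from separate animals. The p-values below therefore rest on a spread between libraries that can be technical. The time on the diet and the age at collection are not given in the sources used here. Small RNA reads do not measure Dnmt2 mRNA, so the knockout was not checked.

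A mature sperm head carries little intact ribosomal RNA, and cauda sperm are known instead for short pieces of RNA, above all 5' tRNA fragments of about the length of a tRNA cut in its anticodon loop. Ribosomal RNA is made as one long precursor from which the 18S, 5.8S and 28S RNAs are cut, and reads that start exactly at the mature 5' end of 28S or 5.8S are a common part of sperm small RNA. Longer fragments can reach past the anticodon loop of a tRNA, or can hold a stretch of an snRNA or snoRNA. Modified bases in such RNAs can stop reverse transcriptase or make it insert another base, so that a modification may appear as a changed letter or as a read end.

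The sequences that carry the results are printed here, 5' to 3', as read. Capitals mark a base that is changed in, or changed between, the forms compared below, or an anticodon, a CCA end or a snoRNA box, as each line says. A change is written with the base of the more abundant form, the position counted from 1 at the 5' end of the read, and the base of the other form. Families are shown because they hold the most reads, the largest differences between libraries, or the tRNAs that Dnmt2 acts on.

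The leading 28S rRNA 5' end read, with the 2 bases that varied most in capitals, followed by its T8C form and by a form with both T8C and T31C:
28S rRNA 5' end: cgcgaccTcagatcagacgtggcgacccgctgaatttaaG
28S rRNA 5' end, T8C: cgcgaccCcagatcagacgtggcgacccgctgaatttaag
28S rRNA 5' end, T8C and T31C: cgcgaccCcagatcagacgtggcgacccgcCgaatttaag

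The leading reads of other rRNA families, with the changed base of the G30T form of 5.8S rRNA in a capital:
28S rRNA internal, leading stretch: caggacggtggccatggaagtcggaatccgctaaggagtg
28S rRNA 3' end: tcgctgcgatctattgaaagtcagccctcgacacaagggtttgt
5.8S rRNA 5' end: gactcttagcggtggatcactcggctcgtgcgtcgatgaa
5.8S rRNA 5' end, G30T: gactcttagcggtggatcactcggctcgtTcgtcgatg
5S rRNA 3' part: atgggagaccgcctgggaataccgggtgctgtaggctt

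Mitochondrial RNAs, with the variable bases 10 and 28 of the mitochondrial histidine tRNA (mt-tRNA-His) in capitals, then its changed forms, then its 3' side with the added CCA end in capitals:
mt-tRNA-His 5' side: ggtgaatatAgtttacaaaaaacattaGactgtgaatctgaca
mt-tRNA-His 5' side, A10T: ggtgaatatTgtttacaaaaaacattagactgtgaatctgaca
mt-tRNA-His 5' side, G28A: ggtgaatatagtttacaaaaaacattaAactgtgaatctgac
mt-tRNA-His 3' side: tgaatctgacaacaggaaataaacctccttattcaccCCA
mt-16S rRNA: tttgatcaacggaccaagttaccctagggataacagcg

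Nuclear tRNAs, with the anticodon (Gly) or the CCA end (Trp) in capitals:
tRNA-Gly-GCC 5' part: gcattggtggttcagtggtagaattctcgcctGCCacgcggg
tRNA-Trp 3' part: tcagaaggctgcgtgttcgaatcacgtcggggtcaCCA

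Small nuclear, snoRNA-like and Y RNAs, with the C and D box letters of the snoRNA-like read in capitals:
U4 snRNA 3' end: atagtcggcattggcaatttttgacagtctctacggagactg
Box C/D snoRNA-like: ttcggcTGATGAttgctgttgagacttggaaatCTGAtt
Y1 RNA 5' end: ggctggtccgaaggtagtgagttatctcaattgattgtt
Y3 RNA 5' end: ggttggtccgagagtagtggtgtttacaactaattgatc

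The libraries held 10165031 to 19030258 reads, and they fell into 3 sets that do not follow the study's groups alone. Among the 200 most abundant sequences of 30 to 34 nt with a G at base 29, the median number of G29T reads was 477 to 619 per 10000 unchanged reads in Dnmt2+/+ ND replicate 1 and both Dnmt2-/- ND libraries (set A), against 1.78 to 3.07 in the other 5. The median of C26G was 8.05 to 9.35 per 10000 in Dnmt2-/- HFD replicate 1 and the 2 Dnmt2+/+ HFD libraries (set B) and 0 in the other 5. Dnmt2+/+ ND replicate 2 and Dnmt2-/- HFD replicate 2 had neither (set C). Set A holds ND libraries only and set B holds HFD libraries only, so in sets A and B the diet and the set cannot be told apart. Set C has 1 library of each diet, and these 2 differ in genotype too, so a value within set C has no replicate. Marker microRNAs moved with the sets as well. The 5 microRNAs of the epithelium list (the miR-200 family) summed to 3066 to 4026 CPM in set B, 220 to 425 CPM in set A, and 1964 (ND) and 646 (HFD) CPM in set C. For muscle, 1 of 5 listed microRNAs had a sequence to match, miR-206, with 64.7 to 75.3 CPM in set B against 0.0759 to 0.676 CPM elsewhere. The 8 sperm and testis microRNAs summed to 2380 to 6430 CPM and were all detected in 7 of 8 libraries, with 1 at 0 in Dnmt2+/+ ND replicate 1. The 2 liver microRNAs with a sequence, of 3 listed, summed to 6.40 to 26.8 CPM, and the 5 of blood and leukocytes, of 6 listed, to 0.683 to 6.99 CPM. CPM is reads per 1000000 reads of all lengths in the library. The part of these cell types and of the sets in the differences below was not tested.

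Reads of 38 to 44 nt made up a small and uneven share of the libraries. They were 0.702% and 2.08% of the reads in Dnmt2+/+ ND (replicates 1 and 2), 7.99% and 5.52% in Dnmt2+/+ HFD, 1.83% and 1.51% in Dnmt2-/- ND, and 4.03% and 3.65% in Dnmt2-/- HFD. The members alone summed to 4574 and 13455 CPM in Dnmt2+/+ ND, 65231 and 42992 in Dnmt2+/+ HFD, 10122 and 10214 in Dnmt2-/- ND, and 31319.6 and 24531 in Dnmt2-/- HFD. Every HFD library was above every ND library. The mean was 9591 ± 3687 CPM for ND and 41019 ± 17852 CPM for HFD (SD, n = 4 each), a log2 difference of 2.10. The exact two-sided permutation test over 4 against 4 libraries gave p = 0.0286, the smallest it can give, and adjusted p = 0.0857 over the 12 such tests. The difference was therefore not called at 0.05, but no outcome of the 12 tests could have been. For the same sum, diet and genotype cannot both reach the smallest p. Within set C the HFD library was higher by 0.87 on the log2 scale, and once the set was a term in the fit the diet difference was 0.67. For diet both values rest on the same 2 libraries, because only set C has both diets. The second is the first less the genotype difference of that fit, 0.20. No minimum of reads was needed for the direction: over all reads of 38 to 44 nt the log2 difference was 1.83. More RNA of this length and less RNA of the other lengths cannot be told apart in shares of a library, nor can more cells of a type and more RNA per cell.

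Few sequences held most of the reads. The most abundant member held 28.9% of the member reads, the first 3 held 43.8% and the first 10 held 55.1%. Of the 2971 members, 1458 were seen in all 8 libraries. At the edge of the rule, 64 sequences had exactly 50 reads and 68 had 49.

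The length profile of the members differed between libraries. Reads of 40 nt were 61.1% and 56.6% of the member reads in Dnmt2+/+ HFD and 45.9% in Dnmt2-/- HFD replicate 1, against 23.3% to 31.6% in the other 5 libraries. In Dnmt2+/+ ND replicate 1, 30.6% of the member reads were 38 nt and 41.2% were 39 nt, and 43 and 44 nt reads were 0.255% and 0.494%. Reads of 43 nt were at 11.7% in Dnmt2+/+ ND replicate 2, 10.1% and 10.99% in Dnmt2-/- HFD, 6.46% in Dnmt2-/- ND replicate 1, and 1.17% to 2.70% in the other 3 libraries with both diets among them. Members had a median GC content of 55.3%, against 51.6% for the sequences of 18 to 37 nt with 50 or more reads. Of the members 31.2% began with C and 22.8% with T, whereas 46.5% of those shorter sequences began with T.

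By source, rRNA gave 1624 members and 80.2% of the member reads, other named RNA (mitochondrial RNA, snRNA, snoRNA-like, 7SL and a microRNA precursor) gave 816 and 16.03%, and nuclear tRNA gave 271 and 2.38%. Y RNA gave 3 members and 0.0130% of the reads, and 257 members with 1.34% of the reads were not matched to a mouse RNA. The rRNA share of the member reads was 63.9% to 87.1% in a library, with the 2 highest shares in the Dnmt2+/+ HFD libraries. The tRNA share was 1.91% to 3.65%, and it was lower in each HFD library than in any ND library.

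rRNA members summed to 3632 and 8597 CPM in Dnmt2+/+ ND, 56588 and 37443 in Dnmt2+/+ HFD, 7324 and 7927 in Dnmt2-/- ND, and 24684 and 17854 in Dnmt2-/- HFD. The groups by diet did not overlap, with means of 6870 ± 2221 CPM for ND and 34142 ± 17024 CPM for HFD (SD, n = 4), a log2 difference of 2.25 and exact permutation p = 0.0286, adjusted p = 0.0857. Within set C the log2 difference was 1.05, and once the set was a term it was 0.97, again resting on the libraries of set C for diet.

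The 5' end of 28S rRNA led the class. It had 470 members, which held 74.2% and 70.5% of the member reads in Dnmt2+/+ HFD and 35.2% to 59.5% in the other 6 libraries. Its summed level was 1867 and 4734 CPM in Dnmt2+/+ ND, 48396 and 30323 in Dnmt2+/+ HFD, 3789 and 4568 in Dnmt2-/- ND, and 18624 and 11368 in Dnmt2-/- HFD. All 4 HFD libraries were above all 4 ND libraries, and the 2 Dnmt2+/+ HFD libraries stood highest. Without the family, the log2 difference by diet was 1.35 for all members and 1.21 for rRNA, in the same direction and smaller. That alternative was chosen after seeing the data.

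The most abundant member of all was the 40 nt read of this family, printed first above. It was at 602 and 1258 CPM in Dnmt2+/+ ND, 27101 and 16072 in Dnmt2+/+ HFD, 1255 and 1501 in Dnmt2-/- ND, and 9715 and 4243 in Dnmt2-/- HFD. The lowest HFD library was above the highest ND library. edgeR gave a log2 difference of 2.93 ± 0.54 (SE) for diet with adjusted p = 0.0517, which misses 0.05, and DESeq2 gave adjusted p = 0.000422. The reads 1 and 2 bases shorter, of 39 and 38 nt, differed less: edgeR gave 1.57 ± 0.51 and 1.48 ± 0.54 (log2, SE), adjusted p = 0.0953 and 0.128.

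The long reads were a tail of a much larger population of shorter ones. Reads beginning with the same 20 bases numbered 10764571, most often 36 nt long (18.8%), and 11.2% of them were 38 to 44 nt. That share was 4.33% and 4.23% in Dnmt2+/+ ND, 24.5% and 15.7% in Dnmt2+/+ HFD, 5.11% and 4.82% in Dnmt2-/- ND, and 18.8% and 6.50% in Dnmt2-/- HFD. Its 3 values above 15% were the set B libraries, and the set C libraries stood at 4.23% (ND) and 6.50% (HFD). Reads of exactly 40 nt made up 18.1%, 11.04% and 12.4% of the family in set B and 1.30% to 2.80% elsewhere. Reads of 34 nt made up 25.3%, 12.6% and 37.4% in set A, 31.3% in Dnmt2-/- HFD replicate 2 and 7.90% to 9.21% in the other 4.

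Single changed bases of the 28S 5' end read followed the sets in part. At base 8 of the 38 to 44 nt reads, C in place of T made up 8.69%, 9.81% and 6.01% in set B, 2.67%, 2.55% and 2.54% in set A, and 1.04% (ND) and 1.23% (HFD) in set C. In the reads of 18 to 37 nt the same letter made up 8.79%, 10.2% and 6.39% in set B, 3.11%, 3.07% and 3.12% in set A, and 1.08% and 1.24% in set C. Set C had both diets and differed little between them. The T8C form of 40 nt was at 16.3 and 11.4 CPM in Dnmt2+/+ ND, 2601 and 1783 in Dnmt2+/+ HFD, 34.1 and 37.9 in Dnmt2-/- ND, and 626 and 53.9 in Dnmt2-/- HFD. edgeR gave this form a log2 difference by diet of 4.70 ± 0.81 (SE), adjusted p = 0.0517. G40A, a change of the last base, was at 5.66%, 5.18% and 5.00% of the pair in set B and 1.08% to 1.90% in the other 5. The form with both T8C and T31C was one of the 3 members of lowest p for diet. It had 513, 300 and 137 reads in set B, 18 in Dnmt2-/- HFD replicate 2, and 0, 2, 1 and 1 in the ND libraries.

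An internal stretch of 28S rRNA, the second rRNA family by level, had 115 members that summed to 254 and 640 CPM in Dnmt2+/+ ND, 3169 and 1944 in Dnmt2+/+ HFD, 733 and 1113 in Dnmt2-/- ND, and 1950 and 2978 in Dnmt2-/- HFD. No ND library reached the lowest HFD library. Unlike the 5' end, 54.0% of the reads that share its first 20 bases were 38 to 44 nt, and 40 nt was their commonest length. Its leading read gave a log2 difference by diet of 1.24 ± 0.56 (SE) in edgeR, adjusted p = 0.206. Of the reads that share the first 20 bases of the leading 28S 3' end read, 97.6% were 38 to 44 nt. The commonest length, 75.8% of them, was 44 nt, the longest in the files. Shorter reads that reach the same 3' end begin further along and are not counted in this share. The 50 members of the 28S 3' end summed to 10.2 and 414 CPM in Dnmt2+/+ ND, 505 and 730 in Dnmt2+/+ HFD, 122 and 34.2 in Dnmt2-/- ND, and 1245 and 307 in Dnmt2-/- HFD. The diets overlapped here, through Dnmt2+/+ ND replicate 2.

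The 5' end of 5.8S rRNA had 103 members, at 42.5 and 864 CPM in Dnmt2+/+ ND, 1033 and 1793 in Dnmt2+/+ HFD, 295 and 167 in Dnmt2-/- ND, and 831 and 528 in Dnmt2-/- HFD. The commonest length of reads with this start was 27 nt, and 8.50% were 38 to 44 nt, with 0.587% in Dnmt2+/+ ND replicate 1 and 15.8% in Dnmt2+/+ HFD replicate 2 as the lowest and highest. The letter at base 30 divided the libraries. T in place of G stood in 94.6% of 482 reads of 38 to 44 nt in Dnmt2+/+ ND replicate 1, 94.7% of 3403 in Dnmt2-/- ND replicate 1 and 93.5% of 1823 in Dnmt2-/- ND replicate 2. In the other 5 libraries it stood in 0.634% to 0.942% of 5817 to 14193 reads. Reads of 30 to 37 nt with the same start gave 83.4%, 86.4% and 84.4% in set A and 0.490% to 1.10% elsewhere. The levels of the family above count both letters.

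The 3' part of 5S rRNA, the small RNA of the large ribosomal subunit that is made apart from the others, showed no such order by diet. Its 80 members were at 71.0 and 489 CPM in Dnmt2+/+ ND, 662 and 477 in Dnmt2+/+ HFD, 731 and 197 in Dnmt2-/- ND, and 423 and 694 in Dnmt2-/- HFD. The highest library was an ND one. Other pieces of 28S rRNA gave 404 members, at 304 and 387 CPM in Dnmt2+/+ ND, 919 and 693 in Dnmt2+/+ HFD, 598 and 436 in Dnmt2-/- ND, and 535 and 608 in Dnmt2-/- HFD. Internal pieces of 18S rRNA, the RNA of the small ribosomal subunit, gave 289 members. They were at 315 and 390 CPM in Dnmt2+/+ ND, 846 and 709 in Dnmt2+/+ HFD, 504 and 449 in Dnmt2-/- ND, and 498 and 510 in Dnmt2-/- HFD. In both families the lowest HFD library was below the highest ND library.

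Other named RNA summed to 649 and 4185 CPM in Dnmt2+/+ ND, 7081 and 4249 in Dnmt2+/+ HFD, 1843 and 1781 in Dnmt2-/- ND, and 5913 and 5558 in Dnmt2-/- HFD. The diets did not overlap, but Dnmt2+/+ ND replicate 2 and Dnmt2+/+ HFD replicate 2 lay close together. The log2 difference was 1.70 with exact permutation p = 0.0286, adjusted p = 0.0857. Within set C it was 0.41, and once the set was a term it turned to -0.39, again resting on the libraries of set C for diet.

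Mitochondrial histidine tRNA led this class. This tRNA carries histidine in mitochondrial protein synthesis, and its 5' side gave 247 members and its 3' side 80. The 5' side was at 62.0 and 2591 CPM in Dnmt2+/+ ND, 3161 and 1854 in Dnmt2+/+ HFD, 1102 and 478 in Dnmt2-/- ND, and 4079 and 3860 in Dnmt2-/- HFD. Dnmt2+/+ ND replicate 2 lay above Dnmt2+/+ HFD replicate 2, so the diets overlapped. The 43 nt member of this family was at 0.210 CPM (4 reads) in Dnmt2+/+ ND replicate 1 and 722 CPM in replicate 2. In reads with the same start as the 5' side, 51.5% were 38 to 44 nt, from 15.4% in Dnmt2+/+ ND replicate 1 to 74.6% in Dnmt2-/- HFD replicate 2. The 3' side, whose reads often carry the CCA added to tRNA ends, was at 53.7 and 603 CPM in Dnmt2+/+ ND, 1520 and 616 in Dnmt2+/+ HFD, 186 and 160 in Dnmt2-/- ND, and 690 and 399 in Dnmt2-/- HFD. For the 5 most abundant members of the class, all from this tRNA, the lowest edgeR adjusted p was 0.357 for diet, and it was 1 for genotype in each.

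Base 10 of the mt-tRNA-His read was often another letter than A. Many mitochondrial tRNAs carry a methylated purine near the start of the D arm, where reverse transcriptase misreads. A was read in 65.6% of 198203 reads of 38 to 44 nt, T in 20.6% and G in 13.4%, while A was read in 83.7% of 146336 shorter reads. The share of A was lower in the long reads than in the short ones in 8 of 8 libraries. It ranged from 48.7% (Dnmt2-/- ND replicate 1) to 72.4% (Dnmt2+/+ ND replicate 2) in the long reads and from 81.0% to 88.4% in the short ones. At base 28, A in place of G stood in 15.3% of 712, 15.0% of 6912 and 15.1% of 3335 long reads in set A and in 0.0632% to 0.130% of the others. The short reads of 28 to 37 nt gave 16.5%, 16.8% and 17.6% in set A and 0.0953% to 0.174% elsewhere. Over the 200 most abundant sequences of 30 to 34 nt with a G at base 28, by contrast, the median of the same change was 10.5 to 16.1 per 10000 in all 8 libraries.

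Pieces of mitochondrial 16S rRNA gave 330 members at 437 and 686 CPM in Dnmt2+/+ ND, 1444 and 1013 in Dnmt2+/+ HFD, 382 and 953 in Dnmt2-/- ND, and 724 and 937 in Dnmt2-/- HFD. The diets overlapped. U4, a small nuclear RNA of the spliceosome, was seen at its 3' end, with 86.8% of the reads of that start at 38 to 44 nt. Its 16 members were at 10.4 and 33.3 CPM in Dnmt2+/+ ND, 214 and 236 in Dnmt2+/+ HFD, 25.9 and 24.6 in Dnmt2-/- ND, and 70.3 and 67.3 in Dnmt2-/- HFD. Every HFD library was above every ND library. Reads named box C/D snoRNA-like, after the class that guides 2'-O-methylation of rRNA, gave 44 members. They were at 26.6 and 38.2 CPM in Dnmt2+/+ ND, 374 and 214 in Dnmt2+/+ HFD, 64.6 and 22.9 in Dnmt2-/- ND, and 187 and 65.9 in Dnmt2-/- HFD. The lowest HFD library was just above the highest ND library.

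Nuclear tRNA members summed to 117 and 469 CPM in Dnmt2+/+ ND, 1282 and 1083 in Dnmt2+/+ HFD, 369 and 300 in Dnmt2-/- ND, and 597 and 517 in Dnmt2-/- HFD. The means were 314 ± 148 CPM for ND and 870 ± 372 CPM for HFD (SD, n = 4), with no overlap, a log2 difference of 1.54 and exact permutation p = 0.0286, adjusted p = 0.0857. In set C the 2 libraries were at 469 (ND) and 517 (HFD) CPM, a log2 difference of 0.14. Once the set was a term the difference was -0.12, which rests on the same 2 libraries for diet. The 5' parts held 53.5% of the tRNA member reads, the 3' parts 28.1% and internal parts 18.4%. Of the 271 members 25 ended in CCA.

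The 5' part of tRNA-Gly-GCC, one of the tRNAs that Dnmt2 methylates, had 59 members. They were at 6.73 and 93.3 CPM in Dnmt2+/+ ND, 432 and 382 in Dnmt2+/+ HFD, 44.2 and 55.7 in Dnmt2-/- ND, and 222 and 162 in Dnmt2-/- HFD. Each HFD library was above each ND library. Long reads were a rarity for this fragment: of 14973440 reads with the same first 20 bases 0.0833% were 38 to 44 nt, and 51.8% were 31 nt, the commonest length. The long share was 0.0158% and 0.0551% in Dnmt2+/+ ND, 0.194% and 0.183% in Dnmt2+/+ HFD, 0.0842% and 0.0497% in Dnmt2-/- ND, and 0.102% and 0.0938% in Dnmt2-/- HFD. The 42 nt read printed above runs through the anticodon to the 3' side of the anticodon stem. It was at 0.105 and 12.9 CPM in Dnmt2+/+ ND, 93.7 and 90.2 in Dnmt2+/+ HFD, 8.72 and 10.2 in Dnmt2-/- ND, and 50.7 and 32.7 in Dnmt2-/- HFD. edgeR gave it a log2 difference by diet of 2.57 ± 0.95 (SE), adjusted p = 0.130, and by genotype of 0.12 ± 0.89, adjusted p = 1.

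Starts of tRNA-Gly-GCC varied in the long as in the short fragments. T at base 6 (G6T) made up 17.4% of 19685 long reads and 17.7% of 21085814 short ones, and starts 3 bases shorter made up 3.00% of the long and 0.152% of the short reads.

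The tRNA-Trp 3' part, read to its CCA end, was at 2.36 and 27.3 CPM in Dnmt2+/+ ND, 82.1 and 52.0 in Dnmt2+/+ HFD, 4.63 and 5.70 in Dnmt2-/- ND, and 37.8 and 19.8 in Dnmt2-/- HFD, and Dnmt2+/+ ND replicate 2 overlapped the HFD libraries. Internal tRNA-Lys reads were between 1.68 and 28.6 CPM with ND and between 43.8 and 117 CPM with HFD with no overlap, and 98.9% of the reads with that start were 38 to 44 nt. tRNA-Asp-GTC, another Dnmt2 substrate, had 4 members from its 5' part, between 0.315 and 3.65 CPM with ND and between 1.503 and 9.03 CPM with HFD. Its 3' part had 29 members, between 8.88 and 64.2 CPM with ND and between 26.5 and 117 CPM with HFD. Both parts of tRNA-Asp-GTC overlapped between diets. Every HFD library was above every ND library in CPM for 12 of the 52 families, 6 of them nuclear tRNA families, and the other nuclear tRNA families did not have that order. Among single sequences 24.6% of the tested members had it, against 8.23% of all, and 0.384% against 1.44% had the opposite order.

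An A of the T loop that many tRNAs carry as methylated A gave different letters in different tRNAs. T was read at that A in 76.8% of 1527 long tRNA-Gly-CCC reads. In tRNA-Glu-TTC, tRNA-Trp and tRNA-Asp-GTC, A was read in 99.4% of 6587, 98.6% of 2622 and 94.9% of 5274 reads. For tRNA-Arg, A was read in 51.1% of 2184 reads. By library the T share of tRNA-Gly-CCC was 64.0% and 83.0% in Dnmt2+/+ ND, 79.0% and 80.4% in Dnmt2+/+ HFD, 80.3% and 75.5% in Dnmt2-/- ND, and 62.5% and 75.8% in Dnmt2-/- HFD, with both diets and genotypes overlapping.

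Y RNAs, which bind the Ro60 protein, were close to absent at this length. The 3 members, 2 from the 5' end of Y1 and 1 from Y3, held 298 reads. They summed to 0.0525 and 1.98 CPM in Dnmt2+/+ ND, 10.2 and 8.36 in Dnmt2+/+ HFD, 1.52 and 0.304 in Dnmt2-/- ND, and 4.08 and 1.05 in Dnmt2-/- HFD. A count of 0 in a library allows up to 3 reads, or 0.158 to 0.295 CPM, so the lowest of these values are near the floor. The log2 difference by diet was 3.22 with exact permutation p = 0.0857, adjusted p = 0.206, and within set C it was -0.91, the other direction. Of the Y1 reads with that start 2.92% were 38 to 44 nt, and their commonest length was 31 nt.

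The sum of the unmatched members did not follow the diet. They summed to 177 and 202 CPM in Dnmt2+/+ ND, 269 and 208 in Dnmt2+/+ HFD, 585 and 207 in Dnmt2-/- ND, and 122 and 601 in Dnmt2-/- HFD. The log2 difference by diet was -0.02 (exact permutation p = 1) and by genotype 0.54 (p = 0.371, adjusted p = 0.743). Of the 257, 161 were recognised as rRNA or tRNA of organisms other than mouse, at 11.7 to 517 CPM, with 509 CPM in Dnmt2-/- ND replicate 1 and 517 CPM in Dnmt2-/- HFD replicate 2 against 166 or less elsewhere. Their sequences are not printed. No source was found for 94, of which the most abundant averaged 4.77 CPM, and 2 held adapter sequence. The 94 summed to 40.3 and 104 CPM in Dnmt2+/+ ND and 245 and 153 in Dnmt2+/+ HFD. In Dnmt2-/- they were at 75.5 and 40.2 CPM on ND and 110 and 83.2 on HFD. Their mean was 64.9 ± 30.7 CPM for ND and 148 ± 71.1 CPM for HFD (SD, n = 4), and the diets overlapped. For RNA of other organisms the means were 227 ± 190 and 150 ± 245 CPM, the other direction. These parts were not tested apart. Of the 94, 21 (22.3%) had TGATGA or TGATGT, the letters of a C box, in their first 16 bases on the strand read, against 2.32% of all members, and this is a match of letters and not a site.

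Many members were near copies of a more abundant one. In 1188 members (40.0%), holding 20.5% of the member reads, 1 base differed from a more abundant member, and in 359 of these it was the last base. Changes of G to T at bases 28 to 32 made up 80 members. They held 3.79% of the member reads in Dnmt2+/+ ND replicate 1 and 7.44% and 5.78% in Dnmt2-/- ND, against 0.0365% to 0.0773% in the other 5 libraries. The 66 members with a G-to-T change at another base held 1.48% to 1.65% in set A and 0.454% to 0.613% elsewhere. Dnmt2+/+ ND replicate 2, an ND library outside set A, had 0.0583% for bases 28 to 32.

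Across sequences, 2865 of the 2971 members had enough reads to be tested, among 50460 sequences of all lengths. A member that is high in 1 group can pass such a filter, and the minimum of 50 reads, through that group alone, so the counts below describe the tested members. For diet over both genotypes edgeR called 0 members at adjusted p under 0.05, and 0% of all sequences. At an unadjusted p under 0.05 it gave 921 members, or 32.1%, against 23.9% of all sequences. Of these 746 were higher on HFD (26% of the members tested, against 10.5% of all) and 175 were lower (6.11%, against 13.5%). DESeq2 called 370 members, or 12.9%, against 7.89% of all sequences. The lowest edgeR adjusted p, 0.0517, was shared by 135 members, 109 of them higher on HFD and 89 of them from the 28S 5' end family, and by 1329 sequences in all. The median log2 difference was 1.13 over the members and -0.001 over all sequences with TMM scaling. With the total of reads alone both moved up, to 1.60 and 0.49, and edgeR then called 256 members, 225 of them higher, beside 2057 of all sequences (4.08%). The count rested on single libraries. Without Dnmt2+/+ ND replicate 2 it was 1226 members, beside 12751 of all sequences (25.3%). Without Dnmt2+/+ ND replicate 1 it was 36, beside 231 (0.458%), and without Dnmt2-/- HFD replicate 2 it was 13, beside 80 (0.159%).

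In that comparison the unmatched members, taken as a class, had the opposite direction to the other sources. The class joins RNA of other organisms and members with no source, whose sums are given above. The median log2 difference by diet was 1.15 over 1582 rRNA members, 1.18 over 792 of other named RNA, 1.58 over 264 of tRNA, 2.57 over the 3 of Y RNA and -1.24 over 224 unmatched ones. At an unadjusted p under 0.05 in edgeR, 512 of 1582 rRNA members were higher and 93 lower on HFD, and 86 of 264 tRNA members were higher and 8 lower. Of 792 members of other named RNA 126 were higher and 29 lower, and of 224 unmatched members 21 were higher and 45 lower. Over all sequences 10.5% were higher and 13.5% lower. The 3 members of lowest p were the 28S form with T8C and T31C, the box C/D snoRNA-like read and the G30T form of 5.8S rRNA, all with edgeR adjusted p = 0.0517. The snoRNA-like read had 264 and 110 reads in Dnmt2+/+ HFD, 91 and 50 in Dnmt2-/- HFD, 0 and 1 in Dnmt2+/+ ND, and 4 and 1 in Dnmt2-/- ND. The 5.8S G30T form, the one of these 3 that was lower on HFD, had 340, 1418 and 878 reads in set A and 9 to 27 in the other 5 libraries, so it divided the ND group as well.

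Within a genotype edgeR called 0 members and 0% of all sequences for diet. In Dnmt2+/+ the unadjusted count was 670 (23.4%, against 15.3% of all), and DESeq2 called 147 of the 1940 members to which it gave an adjusted p (7.58%, against 3.66%). In Dnmt2-/- it was 471 (16.4%, against 13.5%), and DESeq2 called 95 of 1940 (4.90%, against 3.54%). The median log2 difference was 1.28 in Dnmt2+/+ and 0.77 in Dnmt2-/-, beside -0.15 and 0.12 over all sequences. Without Dnmt2+/+ ND replicate 2 the edgeR counts were 550 in Dnmt2+/+, beside 10.8% of all sequences, and 248 in Dnmt2-/-, beside 7.26%. Without Dnmt2+/+ ND replicate 1 the count in Dnmt2-/- was 262, beside 6.37% of all. One fit over the 4 groups shares the spread, so a library can move a comparison that it is not part of. In Dnmt2+/+ the lowest p values were those of the box C/D snoRNA-like read, the 28S T8C form and a 28S form with T8A (edgeR adjusted p = 0.281 each). In Dnmt2-/- they were those of G30T in the 5' end of 5.8S rRNA and of a G29T and a G30T form of its later part (edgeR adjusted p = 0.263 each), all 3 lower on HFD. Both Dnmt2-/- ND libraries are of set A and neither Dnmt2-/- HFD library is, so for these forms diet and set cannot be told apart in that genotype.

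Averaged over both diets, no summed level was called different between the genotypes. The members summed to 31563 ± 27812 CPM in Dnmt2+/+ and 19047 ± 10620 in Dnmt2-/- (SD, n = 4), a log2 difference of -0.28 with exact permutation p = 0.771, adjusted p = 0.960. The log2 differences by genotype were -0.34 for rRNA, -0.29 for tRNA, -0.54 for Y RNA and 0.10 for other named RNA, with exact permutation p of 0.686 to 0.914. The averages for the total, rRNA, tRNA and Y RNA join opposite directions, whereas other named RNA had 0.14 on ND and 0.06 on HFD. On ND the log2 difference of Dnmt2-/- from Dnmt2+/+ was 0.37 for the total, 0.45 for rRNA, 0.51 for tRNA and 1.08 for Y RNA, and on HFD it was -0.93, -1.13, -1.09 and -2.16. On HFD the total was 54112 ± 15725 CPM in Dnmt2+/+ and 27926 ± 4800.0 in Dnmt2-/- (SD, n = 2), and both Dnmt2-/- libraries were below both Dnmt2+/+ libraries for the total, rRNA, tRNA and Y RNA. These differences within 1 diet were not tested. Both Dnmt2+/+ HFD libraries are of set B, whereas the Dnmt2-/- HFD libraries are of sets B and C. For single sequences edgeR called 0 members and 0% of all sequences over both diets, on ND and on HFD. At an unadjusted p under 0.05 the members were 206 over both diets (7.19%, against 4.19% of all), 227 on ND (7.92%, against 3.42%) and 114 on HFD (3.98%, against 4.29%). Of 224 unmatched members, 80 were higher in Dnmt2-/- and 1 lower over both diets, 20 and 1 on ND, and 73 and 1 on HFD. Over both diets 45 of 1582 rRNA members were higher and 46 lower. The same counts were 10 and 14 of 792 for other named RNA and 4 and 6 of 264 for tRNA. The median log2 difference over both diets was 1.76 for unmatched members, 0.12 for rRNA, 0.01 for other named RNA and -0.30 for tRNA. DESeq2 called 4, 10 and 3 members of the 386, 960 and 765 to which it gave an adjusted p, beside 0.388%, 0.282% and 0.366% of all sequences. With the set of libraries as a term, genotype on ND was compared within set A, where Dnmt2+/+ has replicate 1 alone. On HFD it was compared within set B, where Dnmt2-/- has replicate 1 alone. The members that edgeR then called were all higher in Dnmt2-/-. It called 54 over both diets, 60 on ND and 11 on HFD, beside 0.135%, 0.157% and 0.139% of all sequences. Without Dnmt2+/+ ND replicate 1 it called 9 over both diets and 66 on ND, beside 0.198% and 1.82% of all.

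Over both diets and on ND the members at the lowest p for genotype were again changed forms of abundant reads. Over both diets they were the G28A form of mt-tRNA-His and 2 G30T forms of the 5.8S 5' end, of 44 and 41 nt, all with edgeR adjusted p = 1. The G28A form had 135 and 40 reads in Dnmt2-/- ND, 1 and 4 in Dnmt2-/- HFD and 0 in each Dnmt2+/+ library. Dnmt2+/+ ND replicate 1, the library of the same set with the other genotype, held 712 long reads that cover this base and had the same share of A there, as given above. The 41 nt G30T form had 501 and 141 reads in Dnmt2-/- ND and 1 to 13 in the other 6 libraries, and Dnmt2+/+ ND replicate 1 had 482 long 5.8S reads to hold it. On ND the 3 of lowest p were a G29T form of the later part of 5.8S rRNA, the same 41 nt G30T form and the same G28A form, each with edgeR adjusted p = 1. On HFD the lowest p belonged to a member with no source (72 reads), a 44 nt internal 28S read and the 44 nt form of the leading internal 28S stretch. The last was at 1.75 and 0.492 CPM in Dnmt2+/+ HFD and 59.1 and 53.2 in Dnmt2-/- HFD, with 21.6 and 10.9 CPM in Dnmt2+/+ ND replicate 2 and Dnmt2-/- ND replicate 1. edgeR gave it adjusted p = 1 and DESeq2 adjusted p = 0.0249.

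The difference between the genotypes in the response to diet was tested as an interaction. edgeR called 0 members and 0% of all sequences, with 167 members at an unadjusted p under 0.05 (5.83%, against 4.41% of all). DESeq2 called 3 of the 1529 members to which it gave an adjusted p, beside 0.121% of all sequences. The median log2 interaction was -0.62 over the members and 0.29 over all sequences. The 3 members of lowest p were a G29T form of the later part of 5.8S rRNA, a G31T form of a 5.8S read that starts 1 base earlier, and the 41 nt G30T form, all with edgeR adjusted p = 1. The G29T form had 130 and 224 reads in Dnmt2-/- ND and 1 to 6 in each other library. Without Dnmt2+/+ ND replicate 1 edgeR called 11 members, beside 101 of all sequences, and with the set as a term it called 15, beside 26 of all.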

How the data were processed

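Small RNA reads of 8 sperm libraries were used. The deposited values are counts of reads per distinct sequence. The files have no header and give a sequence, its length and its count on each line. The sources used here do not give how reads were trimmed or filtered. Libraries of 3T3 cells in the series were not analysed here.

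Reads were expressed as CPM of all reads of the library (10165031 to 19030258 reads). A count of 0 allows up to 3 reads, or 0.158 to 0.295 CPM. Without molecular identifiers, copies made by PCR count as separate reads, so this floor covers counting error alone.

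No tRNA, rRNA or Y RNA reference was used here. Sources were given by 220 recognition keys of 14 bases. The keys were picked from the reads by a helper, and families were labelled from general knowledge after the reads had been seen, although the plan was to write the keys by hand. That the keys cover the reads is therefore by construction and supports no label. Keys named 2863 members, an overlap of 20 bases named 11, a RefSeq microRNA precursor named 3, and 94 stayed without a source. The 5' and 3' sides of mt-tRNA-His are named by their keys and share bases. Genome positions were not assigned. Near-identical copies of tRNA and rRNA genes cannot be told apart by these reads.

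edgeR 4.0.16 tested the counts of distinct sequences of every length by quasi-likelihood (R 4.3.3; TMM, filterByExpr, 4 groups in 1 fit), with DESeq2 1.42.0 as an alternative. P-values were adjusted by Benjamini-Hochberg over the 50460 sequences tested. Summed CPM was compared by exact two-sided permutation of 4 against 4 libraries on log2 CPM, adjusted over 12 tests. The edgeR fit was checked on simulated counts with large changes and no library sets, and the permutation test on made-up values. Those checks do not measure power at the spread of these data. Named are the 5 most abundant members of each source, the 3 of lowest p in each comparison and the 10 highest families; other names were chosen after their values were seen. Some items that this rule names are not reported here. Other settings tried were scaling, DESeq2, the library set as a term, the replicate number as a block, other minimums, lengths and denominators, and leaving out each library. The members, the lists and the sets of libraries were chosen with earlier results of these data known. Replicates differed by more than counting noise in all 4 groups (chi-square 27.9 to 123 per member). Replicate numbers did not pair the libraries: deviations of same-numbered libraries correlated at -0.26 to 0.10 over the members.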

Additional observations from a re-analysis of the deposited data

Results flagged for a closer look

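Of 64 groups of 4 libraries examined for 1 library far from the others, 1 was picked out; chance picks out about 1 in 20. The unmatched members summed to 585 CPM in Dnmt2-/- ND replicate 1, while the other 3 ND libraries were at 177 to 207 CPM, so that the gap was 0.926 of the whole range of the group.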

How the results depend on the processing

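The diet differences in summed CPM stayed positive for the total, rRNA, tRNA, Y RNA and other named RNA in every setting, except with the set of libraries as a term, and in no setting was a sum called. With the set as a term, which leaves no permutation test, diet rests on the libraries of set C, the only set with both diets. The log2 difference by diet was then 0.67 for the total, -0.12 for tRNA, 0.97 for rRNA, -2.17 for Y RNA, -0.39 for other named RNA and 1.56 for unmatched members. The unmatched difference by diet, -0.02, became 0.0393 per 1000000 reads of 18 to 37 nt and 0.0110 without extension by overlap, and over the unmatched members with 500 or more reads it was -2.79, where the genotype difference was 2.37. Without the 28S 5' end family, a setting chosen after seeing the data, the genotype difference was 0.0617 for the total and 0.0576 for rRNA. Leaving out each library gave genotype differences of -0.999 to 0.28 for the total, -1.01 to 0.14 for tRNA, -1.06 to 0.26 for rRNA, -2.22 to 0.31 for Y RNA and -0.64 to 0.51 for other named RNA, and diet differences of -0.43 to 0.38 for unmatched members. A minimum of 500 reads left no Y RNA member.

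DESeq2 called 370 members for diet, 147 in Dnmt2+/+ and 95 in Dnmt2-/-, beside 7.89%, 3.66% and 3.54% of all sequences with an adjusted p. It called 4 for genotype, 10 on ND and 3 on HFD, beside 0.388%, 0.282% and 0.366%. For the interaction it called 3, beside 0.121%, and edgeR called 0 in each of these comparisons. edgeR with the total of reads alone called 256 for diet, beside 2057 of all sequences (4.08%). With the set as a term edgeR called 1 for diet in Dnmt2+/+ and 9 in Dnmt2-/-, beside 24 and 32 of all sequences. For genotype it called 54, with 60 on ND and 11 on HFD, beside 68, 79 and 70. For the interaction it called 15, beside 26. In that fit the genotype comparisons and the interaction took Dnmt2+/+ on ND and Dnmt2-/- on HFD through replicate 1 alone, as given above. The diet comparisons went through replicate 2 of these groups, the libraries of set C. Diet within 1 genotype thus also drew on libraries of the other genotype. Leaving out each library gave 0 to 1226 for diet, 0 to 550 in Dnmt2+/+, 0 to 262 in Dnmt2-/-, 0 to 9 for genotype, 0 to 66 on ND, 0 to 0 on HFD and 0 to 11 for the interaction. The cause was not tested. With the replicate number as a block edgeR called 0 in all 7 comparisons, and summed CPM could not be called with the block either. With 2 libraries per group the counts turn on single libraries, and members near 50 reads hold few reads in each library.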
